A study of Saccharomyces cerevisiae with 3 samples.

Results

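Diploid budding yeast that has sporulated for 6 h in SPM, a medium with acetate and no nitrogen source, can be moved back to YPD, a rich medium with glucose. The data described here are 1 array of 3 in the series, the one hybridized with RNA of Δsum1 cells taken 40 min after such a transfer. Its reference was RNA of wild-type cells in growth on YPA, in which acetate replaces glucose. The array was taken by its label, and the question it addresses is how far the cells stood from growth on acetate and which sporulation transcripts they still held.

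Both strains were diploids of the SK1 background, which sporulates rapidly: JPY214, in which SUM1 is deleted, gave the sample labeled with Cy5, and the wild-type NKY1551 gave the reference labeled with Cy3. The same Δsum1 culture was sampled at 6 h in SPM, and part of it was moved to YPD and sampled at 20 and 40 min. There is 1 array for each sample, and all 3 arrays share the reference RNA. With 1 array per time point there is no replicate, no test was made, and strain, medium, time, dye and slide cannot be told apart. The text on labeling assigns the dyes in the opposite way to the channel labels and the scanner headers. The latter, which match the study's own description of its arrays, were followed here. A log2 ratio above 0 therefore means more signal in Δsum1 cells than in the YPA reference, relative to the median gene.

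Sporulation is run by a cascade of transcription factors. Ime1 switches on the early genes of premeiotic replication and recombination when glucose and nitrogen are absent, and Ndt80 then switches on the mid-sporulation genes of the meiotic divisions and of spore wall formation. Sum1 represses many mid-sporulation genes in growing cells, with Rfm1 and the histone deacetylase Hst1. In glucose, yeast shuts off the genes of acetate use, gluconeogenesis and respiration and raises those of ribosome synthesis.

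Each of 6218 genes was printed as a PCR product in 2 spots. After background subtraction the median signal of the gene spots at 40 min was 1616 in Cy5 and 2811 in Cy3, against 4280 and 3939 at 6 h and 2748 and 3399 at 20 min. The pooled SD between the 2 spots of a gene was 0.19 on the log2 scale at 40 min, 0.15 at 6 h and 0.17 at 20 min. Every value after ± is an SD of this kind, over 2 spots, and holds nothing of the differences among cultures or slides. Log2 ratios and folds are relative to the median gene of the array, so a change in total mRNA per cell is not seen. The median log2 ratio subtracted was -0.07 at 6 h, -0.36 at 20 min and -0.76 at 40 min. Since the median signals also differed, raw Cy5 signals of different arrays are not by themselves a measure of change. Signals under a floor, 268 in Cy5 and 455 in Cy3 at 40 min, were raised to it, and a fold with the reference under the floor in both spots is given as "at least". These floors were recovered from the values the authors deposited. The floor named in the study's own description of its arrays, the mean of the buffer spots, is 1236 in Cy5 and 1537 in Cy3 at 40 min. The median buffer spot read 438 and 644. Where this choice of floor moved a list count given here by over 1.5 times at 40 min, both counts are given. With the buffer mean as the floor 979 of all 6218 genes were at least 2-fold above at 40 min and 1541 below. List counts with that floor stand beside these numbers, not beside the shares with the floors used here. With either floor, a gene under it in both channels gets the log2 ratio of the median gene. Such a gene counts as within 2-fold although it was not measured.

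SUM1 itself, the deleted gene, had log2 ratios of -1.76, -1.37 and -1.64 at 6 h, 20 min and 40 min. At 40 min its spots read 840 and 968 in Cy5, above the floor, against a reference of 4818 and 4737. Relative to the median gene it lay 3.12-fold under the reference, and 976 genes had a lower ratio. The signal did not drop to the floor, although the gene is deleted.

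After 40 min in YPD the cells were farther from the acetate reference than they had been in SPM. The SD of the log2 ratios over the genes was 1.82 at 40 min, 1.82 at 20 min and 1.45 at 6 h. The typical gene differed from the reference 2.14-fold at 40 min, 2.13-fold at 20 min and 1.69-fold at 6 h, as the median of the absolute log2 ratio. At 40 min 1658 of 6218 genes (26.7%) exceeded the reference by 2-fold or more, the same number (26.7%) were at least 2-fold below, and 2902 were within 2-fold. At 6 h these numbers were 1338 (21.5%), 1108 (17.8%) and 3772, and at 20 min 1748 (28.1%), 1579 (25.4%) and 2891. For 3732 genes (60.0%) the log2 ratio was farther from 0 at 40 min than at 6 h, and for 2418 it was nearer. With the buffer mean as the floor, 979 genes were at least 2-fold above and 1541 below at 40 min, and the SD was 1.46 against 1.26 at 6 h. Of the 1658 genes above, 90 had the reference under the floor in both spots, and of the 1658 below, 67 had the Δsum1 signal there.

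**Figure D1:**
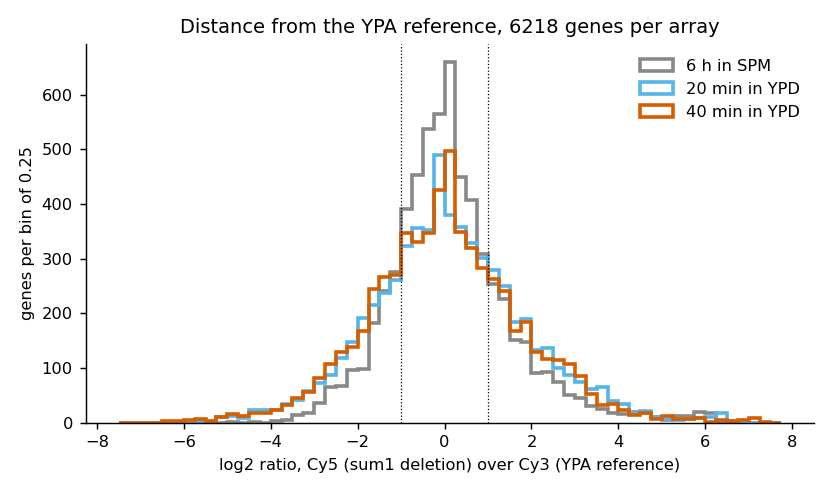
Number of genes (vertical axis, bins of 0.25) by log2 ratio of Δsum1 cells to the YPA reference (horizontal axis) on the arrays at 6 h in SPM, 20 min and 40 min in YPD, 6218 genes each, with dotted lines at 2-fold. The curves at 20 and 40 min are wider than that at 6 h, with SDs of 1.82, 1.82 and 1.45.

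The position of each gene at 6 h and 40 min was set side by side. All arrays share the reference RNA, so the ratios are not independent. Of the 1338 genes that exceeded the reference by 2-fold or more in SPM, 714 (53.4%) were so at 40 min, 569 were within 2-fold and 55 were at least 2-fold below. Of the 1108 genes below in SPM, 602 (54.3%) were still below, 238 were within 2-fold and 268 were above. Of the 3772 genes within 2-fold in SPM, 676 were above and 1001 below at 40 min. Of all genes 26.7% were above and 26.7% below at 40 min. With the buffer mean as the floor, 403 of 1331 genes (30.3%) stayed above.

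The share of genes still 2-fold above, which must grow with the starting level, was 37.2% (290 of 780) for genes 2- to 4-fold above in SPM, 64.7% (200 of 309) for 4- to 8-fold, 83.8% (98 of 117) for 8- to 16-fold, 93.7% (59 of 63) for 16- to 32-fold and 97.1% (67 of 69) for genes at least 32-fold above. The median change from 6 h to 40 min in these classes was -0.87, -1.09, -1.49, -1.47 and -0.12 on the log2 scale. The highest class had a median log2 ratio of 5.79 at 6 h, near the top of what the array could show. With the reference at the floor, a Cy5 signal of 30000 gives 5.52 at 6 h and 6.80 at 40 min. The small change of that class therefore cannot be read as stable expression, and the part of this limit in it was not tested. The 2 genes missing from the highest class were HOP1 and SPO13, both early genes. HOP1, a component of the meiotic chromosome axis, went from a log2 ratio of 5.34 to -0.12 ± 0.05, and SPO13, needed for the pattern of the first meiotic division, from 5.45 to 0.39 ± 0.36, with its reference under the floor at 40 min. Of the 714 genes above the reference at both times, 85 are in a list of sporulation genes used here, 55 in another list only and 574 in none.

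**Figure D2:**
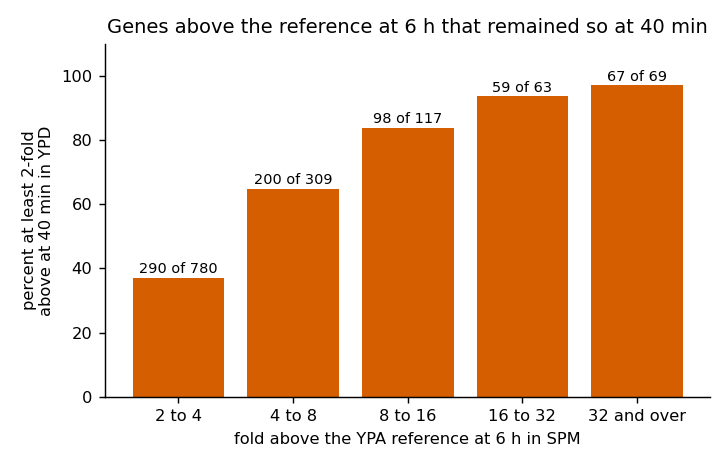
Percent of genes still at least 2-fold above the YPA reference at 40 min in YPD (vertical axis) by how far they were above it at 6 h in SPM (horizontal axis), with the number of genes over each bar. The share climbs from 290 of 780 genes in the lowest class to 67 of 69 in the highest.

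The regulators of sporulation lay on both sides of the reference. NDT80, the activator of mid-sporulation genes, read 12543 and 12502 in Cy5 against a reference of 594 and 526, a log2 ratio of 5.25 ± 0.12, against 5.80 in SPM. SMK1, a MAP kinase of spore wall assembly, had a log2 ratio of 5.73 ± 0.22, at least 53.1-fold, since its reference lay under the floor. IME2, the kinase that acts with Ime1, stood at 3.11 ± 0.00, against 4.68 at 6 h. The 2 partners of Sum1 were also above the reference, RFM1 at 2.18 ± 0.14 and HST1 at 1.43 ± 0.02, both lower than at 6 h (3.56 and 3.02). RFM1 was at 0.95 and HST1 at 0.98, under 2-fold, with the buffer mean as the floor.

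IME1 was the reverse. Its spots read 322 and 289 in Cy5 against a reference of 42202 and 42373, a log2 ratio of -6.35 ± 0.11, or 81.7-fold under acetate-grown cells, the second lowest of all genes with a symbol. At 6 h in SPM the ratio had been 0.20 and at 20 min -4.91. The reference signal was high, and the ratio left the 2-fold range on both YPD arrays. RIM11, a kinase that acts on Ime1, was at -3.16 ± 0.02, and IME4, RIM101 and RIM4, which act on the path to IME1 or IME2, were between -1.36 and -1.14. UME6, RME1, MCK1 and RIM15 were within 2-fold. Of the 15 regulators, SUM1 included, 5 (33.3%) were at least 2-fold above and 6 (40.0%) below, beside 26.7% of all genes on each side. With the buffer mean as the floor these counts were 3 and 5. The values of the 15 genes on each array are drawn in the plot of the regulators.

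**Figure D3:**
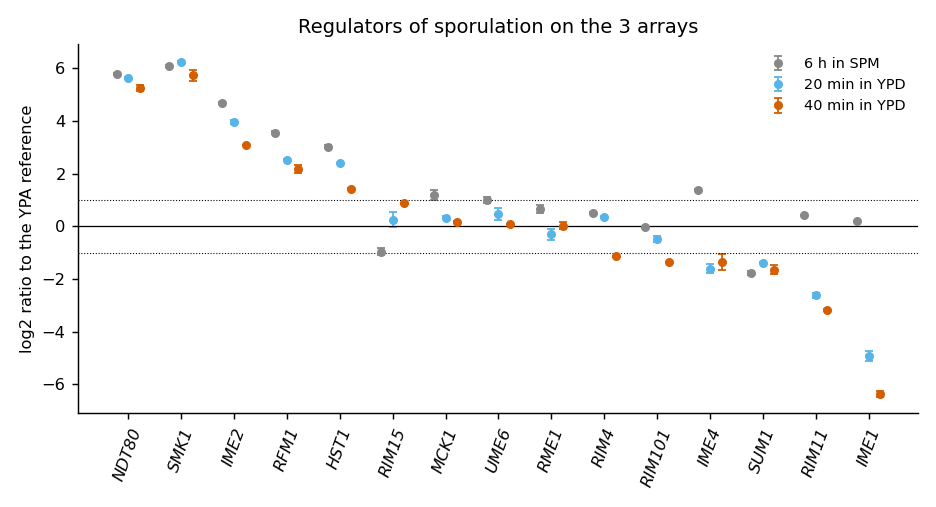
Log2 ratio to the YPA reference (vertical axis) of 15 regulators of sporulation at 6 h in SPM, 20 min and 40 min in YPD, with points at the mean and bars at the SD of 2 spots on 1 array, and dotted lines at 2-fold. NDT80 and SMK1 stayed above 5 on all 3 arrays, while IME1 went from 0.20 to -6.35.

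Early sporulation genes had largely come down toward the acetate level, most of them to signals among the dimmest 25% of genes. Of 27 measured, 17 were within 2-fold of the reference at 40 min, 8 (29.6%) were above and 2 (7.4%) below, beside 26.7% of all genes each. The median log2 ratio was 0.00 against 3.61 at 6 h and 0.29 at 20 min. Relative to 6 h, 22 of the 27 were at least 2-fold lower, beside 30.2% of all genes. DMC1, the meiotic recombinase, read 550 and 513 in Cy5 at 40 min and 35730 and 35240 at 6 h, and its log2 ratio of -0.26 ± 0.07 stood against 4.37 in SPM. SPO11, the nuclease that makes the meiotic breaks, and MND1, a partner of Dmc1, were under the Cy5 floor. MEK1, a kinase of the recombination checkpoint, was at -0.80 ± 0.30, and REC107 and CSM4 were the lowest at -2.40 ± 0.12 and -1.63 ± 0.21. Those still above were SPS1 and IME2, which also belong to other lists, MEI5, at least 4.02-fold with its reference under the floor and 0.00 with the buffer mean, RED1 at 1.95 ± 0.02, NDJ1 at 1.61 ± 0.09, and MSH5, MER1 and ZIP1 between 1.09 and 1.51. Of the 27, 6 had the reference and 4 the Δsum1 signal under the floor in both spots. A gene under both floors is given 0.00, so the median of 0.00 does not by itself place the list at the acetate level. Without spots under a floor 18 genes were left, with a median of -0.08, 6 above and 2 below. Without the dimmest 25% of genes the median was 1.73, over only 6 of the 27. This filter goes by the signal at 40 min, so it drops members that fell to a low signal. With the buffer mean as the floor 4 of 27 were above and 0 below.

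Mid-sporulation genes remained far above the reference. Of 89 measured, 72 were at least 2-fold above at 40 min and 4 below, and the median log2 ratio was 2.99, or 7.95-fold, against 3.73 at 20 min and 4.30 at 6 h. The median of all genes is 0 by construction, and 26.7% of them were above. The lists were drawn in part from genes that the study names as mid-sporulation genes in these and related arrays, so their direction is not independent evidence. All 72 had been above in SPM too, and with the buffer mean as the floor 65 genes were above and 7 below.

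Genes of the meiotic divisions and of the spore wall are given side by side. The 35 genes of the divisions had a median log2 ratio of 2.40 at 40 min against 3.81 at 6 h, and 27 of them were at least 2-fold lower than at 6 h, beside 30.2% of all genes. For the 39 genes of spore wall and prospore membrane formation the median was 5.03 against 4.97, with 8 at least 2-fold lower than at 6 h, beside the same 30.2%, and 4 at least 2-fold higher, beside 19.4% of all genes. With the buffer mean as the floor this median at 40 min was 3.54, with 30 genes above and 4 below. Without bright spots it was 3.81, over 28 genes. The 2 lists share SSP1, and no test of the difference was made. The ceiling of the ratios moved as well: with the reference at the floor, a Cy5 signal of 30000 gives a log2 ratio of 5.52 on the array at 6 h and of 6.80 at 40 min. In SPM 31 of 39 spore wall genes had a Cy5 spot over 30000, and 14 did at 40 min. Among the 35 division genes these numbers were 21 and 0. The part of these limits in the difference was not tested.

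Among the division genes CDC20, an activator of the anaphase-promoting complex, read 5817 and 5753 in Cy5, a log2 ratio of 2.86 ± 0.09, against 32222 and 31762, or 4.01, in SPM. AMA1, the meiosis-specific activator of the same complex, was at 4.14 ± 0.10, above its 2.80 at 6 h. Of 13 subunits of the complex, picked after their values were seen, 9 were at least 2-fold above the reference, beside 26.7% of all genes. Among them were CDC26 at 3.70 ± 0.04 and CDC27 at 3.21 ± 0.13. MND2 alone was at least 2-fold below, at -1.79 ± 0.22, but was at -0.65 with the buffer mean as the floor. The B-type cyclins CLB1, CLB3, CLB4, CLB5 and CLB6 lay between 2.15 and 2.64, all lower than their 3.14 to 4.65 in SPM. The value of CLB6, 2.64, is a bound with the reference under the floor, and was 0.44 with the buffer mean as the floor. CDC5, the polo kinase, was at 1.70 ± 0.10 against 3.73, and PDS1, the securin, at 2.48 ± 0.19 against 4.73. The components of the meiotic spindle pole body plaque were spread, from SPO74 at 6.24 ± 0.06, at least 75.5-fold, and SPO21, at least 18.7-fold, to MPC54 at 1.54. MAM1, the monopolin that joins sister kinetochores, was at least 22.3-fold above a reference under the floor. CDC15 and DOC1 were at -0.96 ± 0.02 and -0.86 ± 0.03.

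In the spore wall list 20 of 39 genes exceeded the reference by 32-fold or more, beside 63 of all 6218 genes. SPS1, a kinase required for spore formation, read 54057 and 41658 in Cy5 against 585 and 372 in Cy3, a log2 ratio of 7.28 ± 0.01. SSP2, needed for spore wall assembly, read 43050 and 47850 against 587 and 645, a ratio of 6.97 ± 0.01. LDS1, SPR3, GAS4 and LOH1 had the reference under the floor in both spots and were at least 137-, 130-, 116- and 113-fold above it. SPR3 encodes a septin of sporulating cells and GAS4 an enzyme that elongates the glucan of the spore wall. SPS2 was at 7.01 ± 0.30, SPO19 at 7.01 ± 0.10 and SPS22 at 6.94 ± 0.07. The 2 chitin deacetylases of the chitosan layer, CDA1 and CDA2, were at 5.64 and 6.52. At the other end SPO75 was at -1.03 ± 0.04, and RRT8, GSC2, SPO1, MUM2 and CHS3 lay between -0.85 and -0.54, within 2-fold. The remaining 16 mid-sporulation genes had a median of 4.57, with SGA1, the glucoamylase of sporulation, at 6.83 ± 0.03 and IRC18 at 6.57 ± 0.04, and SPL2 and FMP45 below the reference at -3.43 and -2.76.

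Late genes were mixed. DIT1 and DIT2, which make the dityrosine of the outermost spore wall layer, were at 4.50 ± 0.03 and at least 10.5-fold above, the latter with its reference under the floor. DIT1 had been at 1.72 in SPM and 2.96 at 20 min. DON1, of the leading edge of the prospore membrane, was at 4.73 ± 0.02. SPS100, a late spore wall gene, was at -0.62 ± 0.23, and SIP18 was at -3.55 ± 0.14. Of the 10 genes, 4 (40.0%) were above and 2 (20.0%) below, beside 26.7% of all genes each, and with the buffer mean as the floor 4 were above and 1 below. The median was -0.58, and 1.43 over the 8 genes left without dim genes, so its direction is not settled. CTT1 (-1.07 ± 0.15) is among them through an older name, and it, SIP18, XBP1 and GRE1 are stress genes as well.

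On the whole array 63 genes exceeded the reference by 32-fold or more, of which 45 had been so at 6 h and 29 are in a sporulation list. SPR2, a sporulation gene outside the lists, had the highest ratio, 7.48 ± 0.23 or at least 178-fold, with 42853 and 53543 in Cy5. Among other genes in no sporulation list, HXT10 was at 7.12, and ECM23 and RRT5, with the reference under the floor, were at least 152- and 139-fold above. OAC1, the mitochondrial oxaloacetate carrier, stood out from these in time: its log2 ratio was 3.78 at 6 h, 6.29 at 20 min and 7.06 ± 0.08 at 40 min, at least 134-fold. Of the 63 genes, 6 were under 2-fold at 6 h, and they are named here after their values were seen. MRT4, NSR1 and ALB1, between 5.15 and 5.18, serve ribosome assembly, as does CGR1. CGR1 and AQR1, a transporter gene, had the reference under the floor and were at least 34.6- and 56.4-fold above. The last, RAD18, owes its 5.34 ± 0.13 to a local background above the spots: its Cy3 signals after subtraction were -7696 and -12722, and it was at 0.22 and 0.30 on the other arrays. In total 16 genes had a spot below its background at 40 min, of which 2 were at least 2-fold above and 2 below.

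**Figure D4:**
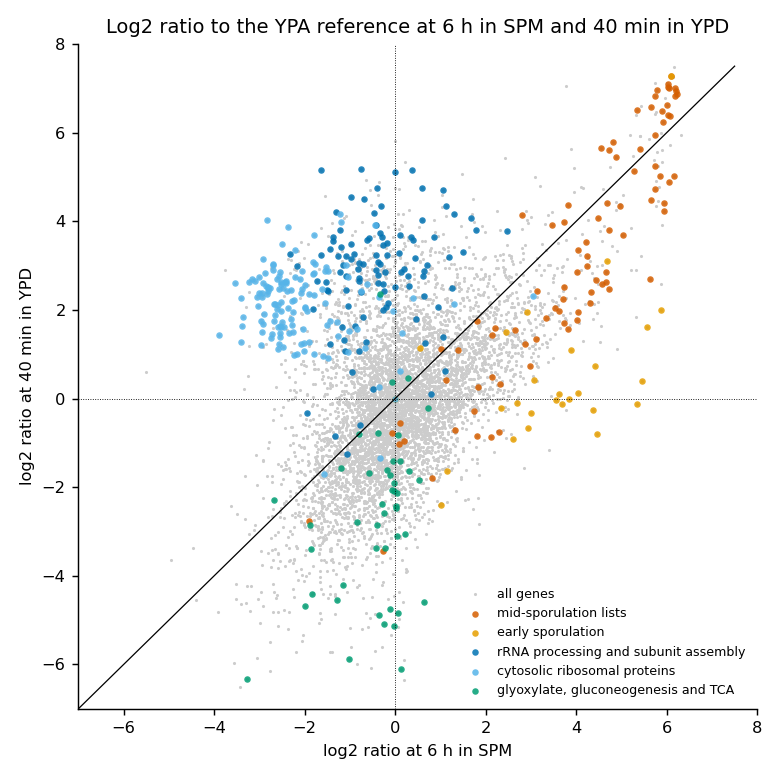
Log2 ratio to the YPA reference at 6 h in SPM (horizontal axis) and at 40 min in YPD (vertical axis) for 6218 genes in grey and 5 groups of listed genes in color, with the diagonal of equal values. Most mid-sporulation genes lie at the upper right on both sides of the diagonal, most early genes under it near a vertical value of 0, and ribosomal protein genes at the upper left, with medians of -2.36 and 2.20.

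Genes of ribosome synthesis were above the acetate reference almost throughout. The small subunit processome cuts and folds the precursor of the small subunit RNA. Of 45 genes listed for it, 41 were at least 2-fold above at 40 min and 1 below, beside 26.7% of all genes each. Their median log2 ratio was 2.91 at 40 min, 3.18 at 20 min and -0.43 at 6 h. The median at 40 min was 2.08, with 37 genes above, when the buffer mean was the floor. EMG1, a methyltransferase of that RNA, read 11266 and 12612 in Cy5 against 754 and 752 in Cy3, a ratio of 4.75 ± 0.12, while its Cy5 signals had been 427 and 425 in SPM. IMP4 and UTP9 were both at 4.35. SOF1 at -1.26 ± 0.11 and UTP20 at -0.85 ± 0.14 were the lowest, and had been at -1.07 and -1.34 in SPM. Of 60 genes of large subunit assembly, 56 were above and 0 below, beside 26.7% of all genes each. Their median was 3.04 against -0.40 at 6 h. NSR1, the yeast nucleolin, read 34711 and 37682 against 1725 and 1734, a ratio of 5.15 ± 0.08. RLP24, REA1 and RPF2 lay between -0.60 and 0.10.

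RNA polymerases I and III were split. The subunits RPC19 and RPA49 were at 4.54 and 4.37, and RPA12, with its reference under the floor, was at least 26.4-fold above. Several initiation factors of polymerase III, picked after their values were seen, were not above. TFC8 was at -1.63 ± 0.19, BRF1 at -1.88 ± 0.16, and TFC1, TFC3, TFC4 and TFC6 were between -0.82 and -0.14. With the buffer mean as the floor TFC8 was at -0.27. RPC37, a subunit, was the lowest at -3.49 ± 0.19. Of 35 genes 22 (62.9%) were above and 4 (11.4%) below, beside 26.7% of all genes each, with a median of 1.87. With the buffer mean as the floor these were 16 and 5, beside 979 and 1541 of all 6218 genes, with a median of 0.85.

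Cytosolic ribosomal protein genes had crossed from below the reference to above it. Of 133 measured, 125 were at least 2-fold above at 40 min and 2 below, beside 26.7% of all genes each, and 6 were within. Of the 125, 114 had been at least 2-fold below in SPM, beside 17.8% of all genes. The median log2 ratio was -2.36 at 6 h, 1.60 at 20 min and 2.20, or 4.59-fold, at 40 min. RPL26B read 22667 and 25367 in Cy5 against 2433 and 2565 in Cy3, a ratio of 4.02 ± 0.06, where its Cy5 signals in SPM had been 1920 and 1639. The quartiles were 1.57 and 2.63. Near-identical copies of a gene share signal on arrays of PCR products. Of 55 pairs of copies 45 differed by less than 1 on the log2 scale, but unrelated members of so narrow a list would often do so too. How far copies were measured apart was not tested. The 2 genes below were RPS30A, at least 3.28-fold lower with its Cy5 signal under the floor, and RPL43B at -1.35 ± 0.10, whose copies RPS30B and RPL43A were at 2.87 and 2.35. A Cy5 spot over 30000 was found for 116 of the 133 at 40 min and for 1 in SPM. The median was 1.52 after loess normalization, which removes a trend of the ratio with signal, and 1.69 with the buffer mean as the floor, with 107 genes above and 1 below.

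Translation factors were moderately above, 23 of 40 (57.5%) beside 26.7% of all genes, with a median of 1.24. SUI3 (3.87 ± 1.01), TIF11 (3.30 ± 0.09) and SUI1 (2.80 ± 0.12), all initiation factors, were the highest, and GCN3 at -0.87 ± 0.14 the lowest. This count was 14 of 40 with the buffer mean as the floor, beside 979 of all 6218 genes. Mitochondrial ribosomal proteins lay near the level of acetate growth. Of 68 genes 8 were above and 22 (32.4%) below, beside 26.7% of all genes, or 5 and 25 with the buffer mean as the floor, and the median was -0.65, from MRPL44 at -2.40 ± 0.08 to MRP2 at 2.45 ± 0.06.

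Biosynthetic genes differed by pathway. Of 54 genes of amino acid synthesis 22 (40.7%) were above and 6 (11.1%) below, beside 26.7% of all genes each. The median was 0.66. With the buffer mean as the floor 15 were above and 10 below, beside 979 and 1541 of all 6218 genes. BAT1, a transaminase of branched-chain amino acids, read 34887 and 36455 in Cy5 against 3246 and 3151, a ratio of 4.24 ± 0.08. HIS1 and LEU1, enzymes of histidine and leucine synthesis, were at 3.99 ± 0.05 and 3.97 ± 0.08, while PRO3, of proline synthesis, was at -3.06 ± 0.03. Methionine and sulfate genes were highest at 20 min, with a median of 1.83 then, 0.61 at 40 min and 0.09 in SPM. SAM1 and CYS3 were at 2.96 ± 0.04 and 2.90 ± 0.02, and MET17 had gone from 1.31 at 20 min to -0.83 ± 0.03. Of 26 genes 12 (46.2%) were above and 1 (3.8%) below at 40 min, beside 26.7% of all genes each. With the buffer mean as the floor 2 were above and 2 below.

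Of 33 purine and pyrimidine genes 14 (42.4%) were above and 9 (27.3%) below, beside 26.7% of all genes each, or 14 and 13 with the buffer mean as the floor. The highest were FUR1 at 4.02, IMD4 at 3.97 and URA7 at 3.85. The lowest were the glycine cleavage genes GCV1 and GCV2, at -3.88 ± 0.10 and -3.48 ± 0.03, and ADE17 at -2.67.

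The genes that acetate growth needs were far below the reference. Of 27 genes of the glyoxylate cycle, gluconeogenesis and acetate use, 0 were at least 2-fold above and 22 below, beside 26.7% of all genes each. Their median log2 ratio was -2.48 at 40 min, -2.05 at 20 min and -0.28 in SPM. FBP1, fructose-1,6-bisphosphatase of gluconeogenesis, read 295 and 236 in Cy5 against 36921 and 39203 in Cy3, a ratio of -6.32 ± 0.16 with 1 Cy5 spot under the floor. ACS1, the acetyl-CoA synthetase of acetate-grown cells, had its Cy5 signal under the floor and was at least 35.3-fold lower, and JEN1, a carrier of lactate and acetate, was at -4.89 ± 0.00. The others were within 2-fold: ICL1, isocitrate lyase, was at 0.38 ± 0.01, PCK1, which starts gluconeogenesis, at -0.78 ± 0.08, and ADY2, an acetate carrier, at 0.46 ± 0.70, beside CAT8 and PYC2. The ICL1 spots were bright in both channels, with 37637 and 38401 in Cy5 and 49301 and 49929 in Cy3. Those of ADY2 did not agree, with 11635 and 44472 in Cy5.

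Of 18 genes of the TCA cycle 16 were below, beside 26.7% of all genes. Their median was -2.51, and had stood at -0.06 in SPM. CIT3, a mitochondrial citrate synthase, read 362 and 342 in Cy5 against 45128 and 37823, a ratio of -6.11 ± 0.12, and its Cy5 signals in SPM had been 42739 and 39526. SDH1, of succinate dehydrogenase, was at -5.88 ± 0.38 and IDH1, of isocitrate dehydrogenase, at -5.09 ± 0.25. Of 35 genes of the respiratory chain and ATP synthase 29 were below, beside the same 26.7%, with a median of -1.93. Among them were 11 of 11 ATP synthase subunits, picked after their values were seen (-2.995 to -1.36). COX5B, the form of the subunit used at low oxygen, was the only one above at 1.60 ± 0.06, and COX5A, its aerobic counterpart, was at -1.12 ± 0.08. CYC1, cytochrome c, was at -0.11 ± 0.04.

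Glycolytic genes were not above the level of acetate growth. Of 25 genes 0 were at least 2-fold above and 15 (60.0%) below, beside 26.7% of all genes. The median was -1.30, or -1.98 after loess normalization. Without bright spots it was -0.56, over only 6 of the 25 genes. PGK1, phosphoglycerate kinase, read 1177 and 1187 in Cy5 against 42015 and 43151 in Cy3, a ratio of -4.41 ± 0.02, and GPM1, phosphoglycerate mutase, was at -3.49 ± 0.02, with TPI1 and PGI1 at -2.68 and -2.50. ADH4, PDC6, PDC1 and PDC5 were highest at 0.79 to 0.92, and CDC19, pyruvate kinase, was at 0.42 ± 0.07. The hexokinases parted: HXK1 was at -5.17 ± 0.09 and GLK1, glucokinase, at -2.31 ± 0.19, while HXK2, the form used in glucose, was at 0.19 ± 0.08 after -2.32 in SPM. PYK2 (-2.97 ± 1.17) had a spot below its background.

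Among 25 genes of hexose transport and sensing 8 (32%) were above and 6 (24.0%) below, near the 26.7% of all genes on each side. With the buffer mean as the floor 6 were above and 4 below, beside 979 and 1541 of all 6218 genes. HXT1 and HXT3, carriers of glucose-grown cells, were at 1.49 ± 0.21 and 1.18 ± 0.05, and had been at -0.89 and -1.91 in SPM. The glucose signaling genes STD1, MIG1 and MIG2 were at 3.94 ± 0.04, 2.84 ± 0.16 and 2.25 ± 0.02, and RGT1, a repressor of hexose transporter genes, was at -1.58 ± 0.11. HXT5 and HXT6, carriers of slow growth or little glucose, were at -2.71 and -1.98. HXT10 and HXT14, at 7.12 and 3.92, had been at 5.75 and 3.46 in SPM. Near-identical hexose transporter, TDH, ENO and PDC genes share signal and are uncertain one by one.

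Stores and stress genes were low. Of 20 trehalose and glycogen genes 14 were below and 1 above, beside 26.7% of all genes each, with a median of -2.37. The lowest were TPS2, trehalose phosphatase, at -5.96 ± 0.17 and PGM2 at -4.84 ± 0.69, while PIG2 was at 1.64 ± 0.06. Of 32 genes of the general stress response 27 were below and 0 above, beside 26.7% of all genes each. Their median was -2.66 against -0.59 in SPM. HSP42, a small heat shock protein, read 499 and 517 in Cy5 against 47075 and 37301, a ratio of -5.61 ± 0.27. MSC1 and YGP1 were at -5.73 and -5.50, HSP12 at -2.52 ± 0.12, and MSN2, the activator of the response, at 0.01 ± 0.20. Among the 31 genes at least 32-fold below the reference 0 had been so in SPM, 16 had been at least 2-fold below, and 13 are in the carbon, stress or nitrogen lists. AIM17 was the lowest of the named genes, at -6.50 ± 0.04 or at least 90.5-fold lower. CTR3, a copper transporter, was at -5.90 ± 0.02 after 0.20 in SPM, and CYB2, lactate dehydrogenase, at -5.86 ± 0.10.

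Genes repressed by good nitrogen sources were split. Of 23 genes 12 (52.2%) were below and 2 (8.7%) above, beside 26.7% of all genes each, with a median of -1.02. PUT1 and PUT2, which break down proline, were at -4.84 ± 0.20 and -4.37 ± 0.25, and UGA1, of GABA use, was at least 36.8-fold lower. GAP1, the general amino acid permease, was at 1.32 ± 0.06 and DAL1, of allantoin use, at 2.07 ± 0.00, and DAL5 and DAL4 were within 2-fold. No gene of the list was above with the buffer mean as the floor.

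Genes of the mitotic G1 and S phase were close to the reference. Of 41 genes 28 were within 2-fold, 5 (12.2%) above and 8 (19.5%) below, beside 26.7% of all genes each. The median was -0.03, and with the buffer mean as the floor 2 were above and 6 below. CLN3, the cyclin that starts the cell cycle, read 8878 and 9322 in Cy5 at 40 min against 1582 and 1877 in SPM, and its ratio of 0.22 ± 0.07 stood against -3.34. CLN1 was at -1.93 ± 0.06 and CLN2 at 0.05 ± 0.17. Picked after their values were seen, the 6 MCM helicase genes lay between -0.83 and 0.60, and the 8 core histone genes between -0.80 and 0.06. POL12, a subunit of the replicative primase complex, was highest at 2.18 ± 0.03. Other genes that the study names were at -2.69 ± 0.10 (TOR1), 0.46 ± 0.03 (BCY1), 1.94 ± 0.44 (HAM1), -1.36 ± 0.16 (RAD55), 0.74 ± 0.21 (MSH1) and -0.92 ± 0.47 (MSB2).

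**Figure D5:**
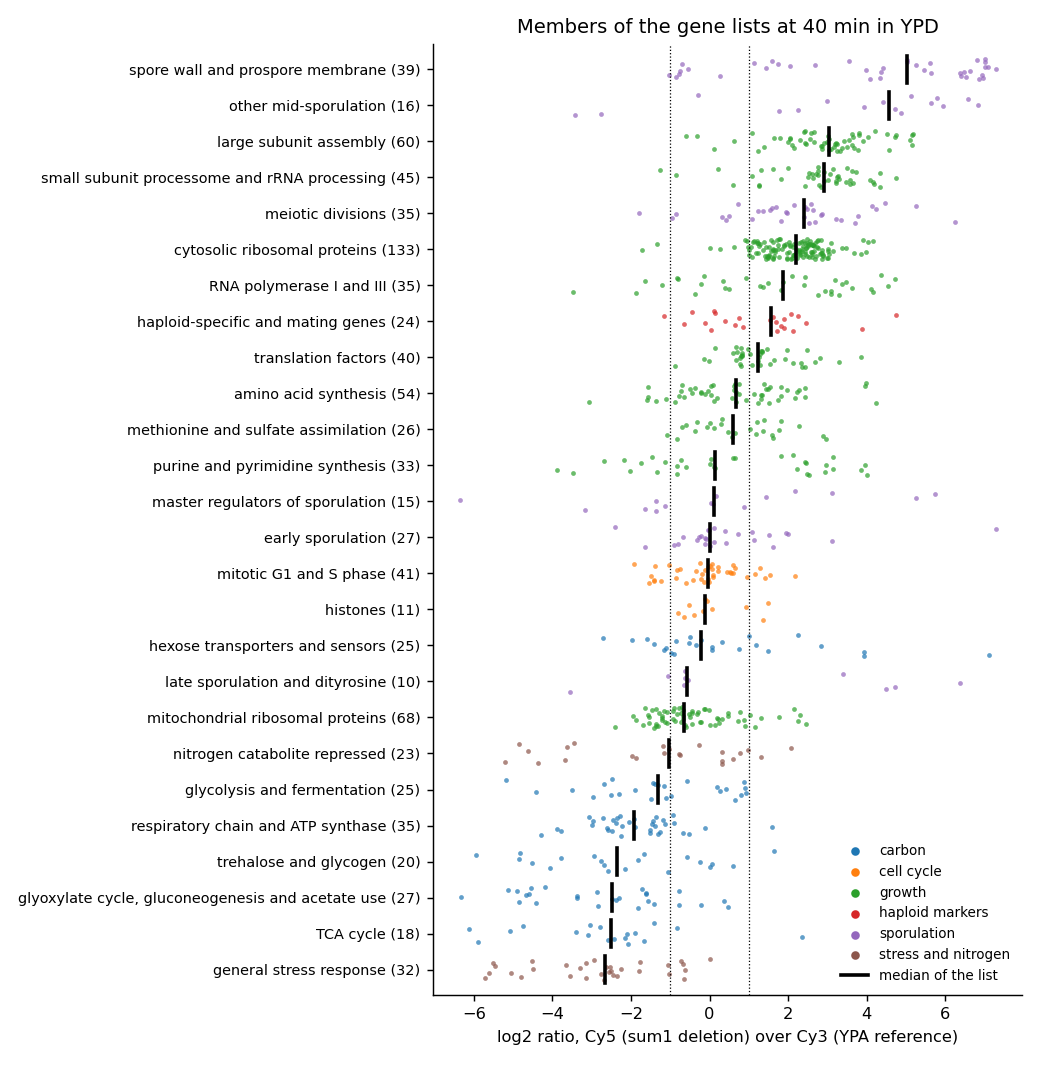
Log2 ratio to the YPA reference at 40 min in YPD (horizontal axis) of the members of 26 gene lists, 1 point a gene, colored by kind of list, with a black bar at each median, the number of genes in parentheses and dotted lines at 2-fold. The medians run from -2.66 for the general stress response to 5.03 for the spore wall.

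Genes that diploids repress, which are active in haploid and mating cells, were measured as a check of the cell type. Of 24 genes 13 (54.2%) lay at least 2-fold above and 1 (4.2%) below, beside 26.7% of all genes each. The median was 1.57 at 40 min against 0.69 in SPM, and 5 genes had the reference under the floor. STE18, a G protein subunit of the mating response, read 16422 and 15905 in Cy5 against 1026 and 1017, a ratio of 4.75 ± 0.02, and HO, the mating type endonuclease, was at 3.89 ± 0.06. MFA1, MF(ALPHA)1, MFA2 and MF(ALPHA)2, the genes of the mating pheromones, lay between 1.69 and 2.25, with the reference under the floor for MFA1 and MFA2, STE2 was at 0.85 ± 0.39 and FUS1 at 0.10 ± 0.21. The list made up 0.212% of the gene signal in Cy5 and 0.092% in Cy3. With the buffer mean as the floor 2 of 24 were above and the median was 0.00, the value given to a gene under both floors. The part of haploid and mating genes in the other results was not tested.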

How the data were processed

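RNA of Δsum1 cells at 6 h in SPM, 20 min and 40 min in YPD was hybridized to 1 array each, in Cy5, against Cy3-labeled RNA of wild-type cells growing in YPA. The deposited scanner files give an intensity and a local background per spot and channel, quantified by the authors with QuantArray, not yet background-subtracted, and a signal-to-noise score. A second deposited table holds log2 ratios of the authors, median-centered, with bad spots omitted and duplicates averaged. No aligner or genome build applies to these arrays.

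Here each signal less its background was set to at least the floor, the log2 ratio of Cy5 to Cy3 was centered on the median of 12436 gene spots, and the 2 spots of a gene were averaged, with no spot left out. The floors were recovered from the deposited table and lie where 5.16% (Cy5) and 5.24% (Cy3) of gene spots at 40 min are under them. After a constant shift of the median the ratios were within 0.001 of the deposited log2 ratios for 98.1% of 5469 genes at 40 min, in part because the floors come from them. The 236 buffer and 384 Arabidopsis control spots were left out. The number of arrays limits the precision. Genes were named through the R64 annotation, in which 5663 of 6218 had a match.

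The limit for a count was 2-fold. The genes and lists were chosen with earlier results of these data known. After the scanner files had been opened, SPO69, SIK1 and MRE4, older names of genes listed elsewhere, were taken out of the lists. Named are SUM1, all regulators, the 3 highest and 3 lowest of each list with a signal over a floor, and the 15 highest and 15 lowest of all genes with a symbol and both spots past 2-fold, besides genes the study names. Further members of the lists are named as examples, chosen after their values were seen. Alternatives were other floors, normexp background correction with an offset of 50 and loess (limma 3.58.1, R 4.3.3), the deposited values, single spots, filters on signal-to-noise, dim or bright spots, other centring and other limits. The steps were checked on simulated spots. A planned count of promoter motifs was not run, and no sequence is shown, since no promoter table was used here. Python 3.11.15 with pandas 2.3.3 and numpy 2.4.6 was used.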

Additional observations from a re-analysis of the deposited data

Results flagged for a closer look

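The cytosolic ribosomal protein genes lay on opposite sides of the reference at 6 h in SPM and at 40 min in YPD, with median log2 ratios of -2.36 and 2.20, and the difference was not tested. The same holds for 268 of 1108 genes at least 2-fold below the reference at 6 h, which were at least 2-fold above at 40 min. These are 24.2%, beside 26.7% of all genes above at 40 min. The other way went 55 of 1338 genes (4.1%), beside 26.7% of all genes below at 40 min. Each count is from 1 array per time point.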

How the results depend on the processing

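Of the list medians and the 200 named genes past 2-fold, none changed sign under the 14 other settings that bear on values. With the mean of the buffer spots as the floor the haploid median, MEI5, RPS30A, DAL1, STE6 and RAD55 came to 0.00. That is the value given to a gene under the floor in both channels, so it does not place them at the level of the reference. With the same floor IME4 (-0.20), REC107 (-0.87), CSM4 (-0.68), SOF1 (-0.375), CLN1 (-0.57), RGT1 (-0.84) and HAM1 (0.17) came to under 2-fold, among others. Medians under 2-fold changed sign for histones, late genes, the regulators, hexose transport, and G1 and S phase. With fold limits of 1.5 and 3 included, 6 of 62 counts and spreads moved, a count by over 1.5 times or a spread by more than the error between spots. Of 378 list medians 83 moved by more than that error. The cause was not tested. No paired analysis was possible because each time point has 1 array, and for the same reason leaving out an array was not possible. In each of the 15 settings the SD over genes at 40 min exceeded that at 6 h. Of the genes above the reference in SPM, 30.3% to 58.2% were still above at 40 min. A ratio is limited by the floor at its dim end.

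With a limit of 3-fold, 1095 genes were above, 1038 below and 390 above at both times. With the mean of the buffer spots as the floor, 979 genes were above, 403 were above at both times and the SD was 1.46. The medians at 40 min were then 2.06 for all mid-sporulation genes, 1.497 for the divisions, 3.54 for the spore wall, 3.10 for other mid-sporulation genes, -0.13 for late genes and -0.20 for the regulators. They were 2.08 for the small subunit, 2.54 for the large subunit, 0.85 for RNA polymerases, 1.69 for ribosomal proteins, 0.79 for translation factors, 0.22 for amino acid synthesis and 0.00 for methionine. They were -2.82 for the glyoxylate list, -2.73 for the TCA cycle, -2.34 for respiration, -1.75 for glycolysis, 0.00 for hexose transport, -2.93 for stress, -0.83 for nitrogen, -0.22 for G1 and S phase, -0.55 for histones and 0.00 for haploid genes.

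Filters on dim and bright spots go by the signal on the array itself, and the number of genes left is in parentheses. Without bright spots the medians were 2.52 for all mid-sporulation genes (73), 3.81 for the spore wall (28) and 3.92 for other mid-sporulation genes (11). They were -2.06 for the glyoxylate list (10), -2.82 for the TCA cycle (4), -1.66 for respiration (16) and -0.56 for glycolysis (6). Trehalose and glycogen genes were at -1.83 (13) and histones at 0.93 (5). Without dim genes the medians were 1.73 for early (6), 3.54 for all mid-sporulation (83) and 1.43 for late genes (8). They were 2.42 for RNA polymerases (27), 0.37 for purines (32), -2.85 for the glyoxylate list (25) and 0.33 for hexose transport (19). Trehalose and glycogen genes were at -2.68 (17), nitrogen genes at -1.87 (17) and haploid genes at 2.10 (8).

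After loess normalization the medians were 1.52 for ribosomal proteins, 0.71 for translation factors, 0.34 for amino acid synthesis, -2.80 for the glyoxylate list, -2.72 for the TCA cycle, -1.98 for glycolysis, -0.016 for hexose transport, -2.87 for stress and -0.98 for histones. After normexp and loess they were, in the same order, 1.53, 0.72, 0.34, -2.88, -2.73, -1.98, 0.056, -2.88 and -0.98, with 4.36 for other mid-sporulation genes, and after normexp alone haploid genes were at 1.33. With no floor the medians were 3.23 for all mid-sporulation genes, 5.42 for the spore wall and 0.61 for purines.

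Without noisy spots, those with a low ratio of signal to noise, they were 2.56 for all mid-sporulation genes, 2.06 for the divisions, 4.11 for the spore wall, 4.24 for other mid-sporulation genes, 1.55 for RNA polymerases, 0.44 for purines and 0.72 for haploid genes. Without spots under the floor they were 2.55, 2.01, 4.10 and 4.19 for the same 4 sporulation lists, 0.39 for purines and 1.15 for haploid genes. From the first spot alone other mid-sporulation genes were at 4.78 and haploid genes at 1.25. From the second spot alone all mid-sporulation genes were at 3.31, other mid-sporulation genes at 4.31 and hexose transport at -0.022.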
